A study of Mus musculus with 6 samples.

Results

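miR-21a is made from a single hairpin on mouse chromosome 11, and the count table held a row for each of its mature arms: mmu-miR-21a-5p, the guide, and mmu-miR-21a-3p, the passenger. Both rows were taken by name, 2 of the 902 mature miRNA rows in the table, and the row of the hairpin mir-21a was used as support. Small RNA of extracellular vesicles (EVs) from primary cells of CD1 mice was sequenced in 6 libraries, 3 from cortical astrocytes and 3 from neonatal neural stem cells (NSCs), which were grown from the subventricular zone. EVs of both groups were collected by serial centrifugation as the P100 fraction, the pellet of the ultracentrifuge spin, and no treatment or genetic change was listed for either group. The astrocyte cultures were started from the cortex of neonatal pups and shaken to remove microglia and oligodendrocytes. They were then split into exosome-free astrocyte medium, and at the end plated in medium with fetal bovine serum. The medium of the NSC cultures was not given in the sources used here. No source said whether the replicates came from separate cultures, so each p-value here takes in the spread among the sequenced samples alone, and that spread may be technical.

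A miRNA gene is transcribed as a long RNA in which the hairpin is cut out by Drosha with Dgcr8, exported, and cut again by Dicer into a duplex of 2 arms. An Argonaute protein keeps the guide arm, which finds target mRNAs mainly through its seed (bases 2 to 8), and the passenger arm is mostly degraded. miR-21 is widely expressed, is raised in many tumors and in reactive astrocytes after injury, and lowers targets such as Pdcd4, a translation inhibitor, and Reck, a matrix protease inhibitor.

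The sequences of both arms are shown because the arms carry different seeds and so pair with different targets; the relatives miR-21b and miR-21c are shown because their reads could be confused with those of the guide. All were copied from RefSeq (GRCm38.p6), which held 782 of the 902 mature names, and the capitals mark the seed.
miR-21a-5p: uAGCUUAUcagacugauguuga
miR-21a-3p: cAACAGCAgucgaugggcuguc
miR-21b: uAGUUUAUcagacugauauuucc
miR-21c: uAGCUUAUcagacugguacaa
miR-21a-5p lies at chr11:86584120-86584141 and miR-21a-3p at chr11:86584082-86584103, both on the minus strand. The hairpin (chr11:86584067-86584158) lies on the same strand in exon 12 of Vmp1, an endoplasmic reticulum protein gene of autophagy, within the 3′ UTR in the GENCODE vM21 annotation. Counted from 1 at the 5′ end and with the base of miR-21a-5p first, miR-21b differed by C4U, G18A, G21U and A22C, so that its seed is another one. miR-21c differed by A16G, G18A, U19C, U20A and G21A and is the only other RefSeq mature miRNA with the guide seed. No other mature name in RefSeq had the seed of miR-21a-3p. miR-21b had 3 counts over the 6 libraries together, and miR-21c was not analysed here.

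The libraries held 44620985 to 111851274 counts over all rows, of which 177093 to 399211 were on mature miRNA rows. Reads that fit several rows may be counted more than once. The astrocyte marker Gfap was higher in astrocyte EVs (log2 fold change 1.85, SE 0.38, adjusted p = 0.0263 in edgeR's quasi-likelihood test over all non-hairpin rows), as 1 of 8 astrocyte marker rows that passed in that direction, where 6.02% of all RefSeq rows did. The median log2 fold change of the 8 rows was 0.15. Slc1a3, Slc1a2 and Aldh1l1 had negative values (-1.15, -0.80 and -0.18), none of them called, and the rest were positive. None of the 6 tested NSC marker rows passed in either direction in edgeR, and 1 was lower at an unadjusted p under 0.05. In mesenchymal and red blood cell miRNAs the astrocyte EV libraries differed, and replicate 3 stood furthest from the others. The summed level of 4 mesenchymal miRNAs was 91133, 97249 and 6600 CPM in astrocyte EV replicates 1, 2 and 3 (here CPM relates to the TMM-scaled total of mature miRNA counts), against 860 to 1861 CPM in NSC EVs. The summed level of 4 red blood cell miRNAs was 19435, 40976 and 101933 CPM, against 930 to 1640 CPM.

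miR-21a-5p was far more abundant in astrocyte EVs than in NSC EVs. Its row held 6453, 7284 and 5175 counts in astrocyte EV replicates 1, 2 and 3, and 1190, 966 and 457 counts in NSC EV replicates 1, 2 and 3. After TMM scaling these were 30656, 36699 and 16287 CPM against 3990, 4340 and 2828 CPM. Every astrocyte EV library lay above every NSC EV library, and replicate 3 was the lowest of its group in both EV types. The group means were 27881 ± 10485 CPM and 3719 ± 792 CPM (SD, n = 3 each), astrocyte EVs first. This was a 7.49-fold difference, or 2.91 as a log2 fold change (SE 0.43), with an adjusted p of 0.00271 in edgeR's quasi-likelihood test with Benjamini-Hochberg adjustment over 256 mature miRNAs. The same test called 48% of the 256 miRNAs, 22.3% as higher and 25.8% as lower in astrocyte EVs. The groups did not overlap for 64.8% of them, and every astrocyte EV library lay above every NSC EV library for 28.5%. By size of fold change miR-21a-5p stood at place 30 of 256. Among the 21 miRNAs with a mean of at least 10000 CPM in astrocyte EVs, 7 had a larger log2 fold change. The median log2 fold change of all mature miRNAs tested was -0.06. It moved to -0.16 without TMM scaling and to -0.20 when the total of all non-hairpin rows was the library size. In these settings miR-21a-5p stood at 2.80 and 2.79. Over all alternatives tried miR-21a-5p ranged from 2.59 to 3.13.

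As a share of mature miRNA counts, which needs no TMM scaling, miR-21a-5p made up 3.54%, 3.48% and 1.30% in astrocyte EV replicates 1, 2 and 3. In NSC EVs it made up 0.458%, 0.475% and 0.258%. The shares were 2.77% ± 1.28 and 0.397% ± 0.121 (SD, n = 3 each), and the exact two-sided permutation test gave p = 0.1, the smallest that 3 against 3 libraries allow. The guide was the 7th, 9th and 15th most abundant mature miRNA in the 3 astrocyte EV libraries and the 34th, 26th and 36th in the NSC EV libraries. By mean share it followed miR-199a-3p and miR-199b-3p, 2 rows with the same count in each library and a mean of 2.96% ± 2.39 (SD, n = 3), in astrocyte EVs. It stood just above miR-26a-5p at 2.60% ± 0.382 and miR-22-3p at 2.42% ± 0.754 (SD, n = 3 each). None of these neighbors differed from miR-21a-5p by more than its SD. In NSC EVs its neighbors were miR-5099 (0.433%) and miR-93-5p (0.426%) above and miR-382-5p (0.374%) and miR-22-3p (0.332%) below, again all within the SD of miR-21a-5p. Relative to all counts outside the hairpin rows, a scale that also moves with the amount of other RNA, miR-21a-5p stood at 75.4, 101 and 46.5 CPM of that total in astrocyte EVs and at 24.9, 21.8 and 9.03 in NSC EVs, so the groups were apart on that scale too. Whether EVs held more miR-21a each or more miR-21a-carrying EVs were collected cannot be told apart in bulk RNA.

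**Figure D1:**
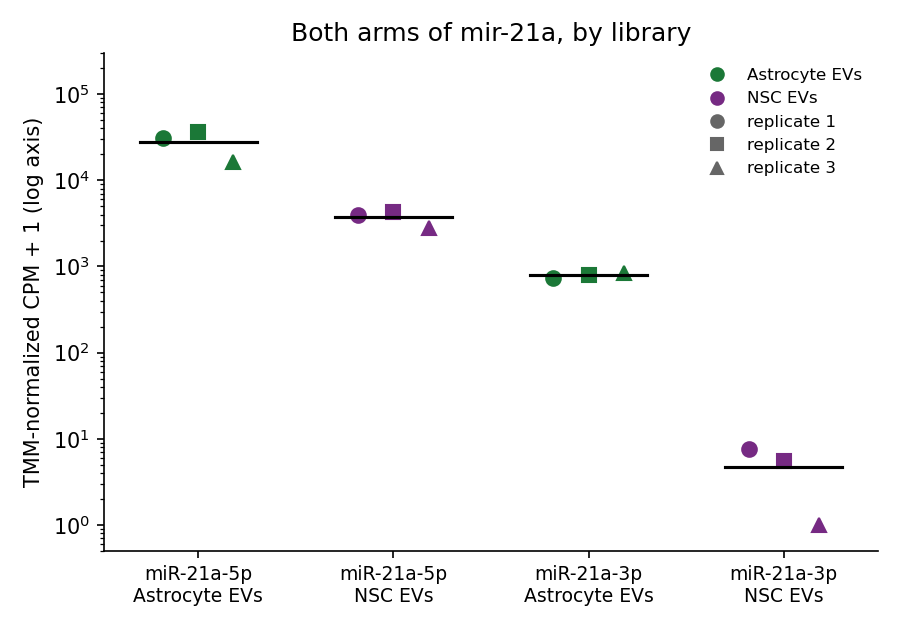
TMM-normalized CPM plus 1 (log axis) of miR-21a-5p and miR-21a-3p in each library; points are libraries, shaped by replicate number, and black lines are group means of 3 libraries. The guide had a mean of 27881 CPM in astrocyte EVs and 3719 CPM in NSC EVs, and the passenger had means of 788 CPM and 3.73 CPM.

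The passenger arm miR-21a-3p was well detected in astrocyte EVs and almost without counts in NSC EVs. Its row held 153, 156 and 270 counts in astrocyte EV replicates 1, 2 and 3 and 2, 1 and 0 counts in the NSC EV replicates. On the CPM scale these were 727, 786 and 850 against 6.71, 4.49 and 0, with means of 788 ± 61.5 and 3.73 ± 3.42 (SD, n = 3 each). The groups lay far apart, and the spread among the astrocyte EV libraries was small. As a share of mature miRNA counts the passenger made up 0.0840%, 0.0745% and 0.0676% in astrocyte EVs, so astrocyte EV replicate 3 was the highest of its group in CPM and the lowest in share. A level of 3 counts corresponds to 9.44 to 18.6 CPM in these libraries, so all 3 NSC EV values were below the level that could be told from 0 at this depth. The ratio of the CPM pooled over each group was 181, with an exact 95% interval of 61.7 to 881 that covers counting error only, from 579 counts in astrocyte EVs and 3 in NSC EVs.

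In edgeR's quasi-likelihood test miR-21a-3p had a fitted log2 fold change of 7.37 (SE 0.68, adjusted p = 5.90e-04). With a library at 0 counts this fitted value depends on the prior count, and the row entered the test only through its astrocyte EV counts. It was the third largest log2 fold change of 256, and 2 miRNAs had a lower adjusted p. In rank by abundance miR-21a-3p stood at 84, 86 and 80 in the astrocyte EV libraries.

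**Figure D2:**
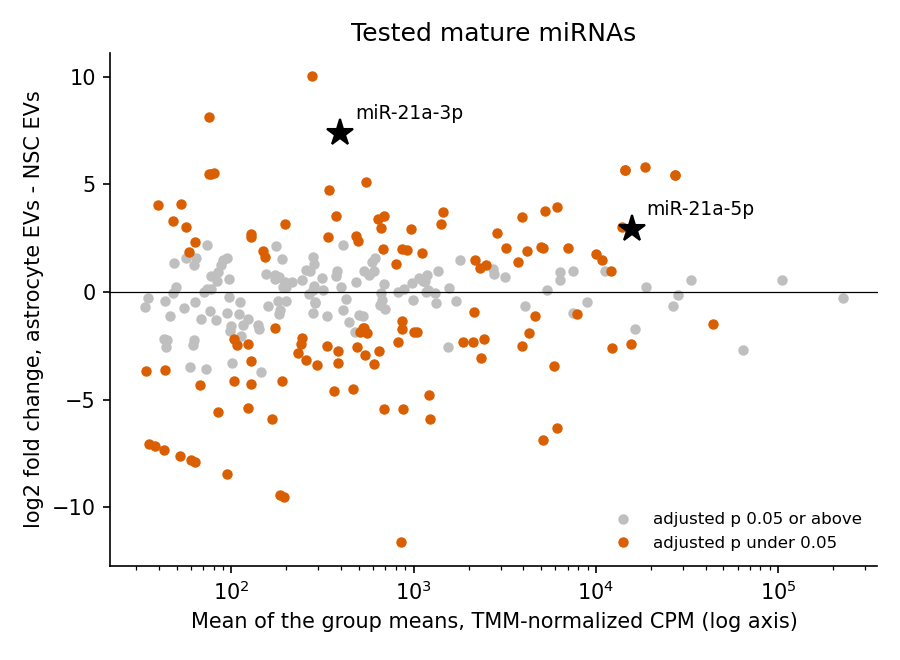
Mean of the group means (TMM-normalized CPM, log axis) and log2 fold change, astrocyte EVs minus NSC EVs, of the 256 tested mature miRNAs, with those under an adjusted p of 0.05 in orange and both arms of mir-21a as stars. miR-21a-5p at 2.91 sits among the abundant miRNAs, and miR-21a-3p at 7.37 is near the top of the plot with a low mean level.

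The hairpin row, which counts the reads of both arms again and is no independent evidence, held 6590, 7421 and 5434 counts in astrocyte EVs and 1192, 967 and 457 in NSC EVs. The hairpin was higher in astrocyte EVs by 3.04 on the log2 scale (SE 0.41, adjusted p = 0.00187 in edgeR's quasi-likelihood test over 258 hairpins). The same test called 47.3% of these hairpins, 23.3% as higher. The counts of both arms together exceeded the hairpin count by 16, 19 and 11 in the astrocyte EV libraries and by 0 in each NSC EV library. Of 107 hairpins with both arms and a row of their own, the arms summed above the hairpin for 8, below it for 37 and to the same count for 62.

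The passenger took a larger part of the mir-21a counts in astrocyte EVs than in NSC EVs. Of the counts on both arms, miR-21a-3p made up 2.32% (95% Wilson interval 1.98 to 2.71), 2.10% (1.80 to 2.45) and 4.96% (4.41 to 5.57) in astrocyte EV replicates 1, 2 and 3. It made up 0.168% (0.0460 to 0.610) and 0.103% (0.0183 to 0.583) in NSC EV replicates 1 and 2. NSC EV replicate 3 had 0 of 457 counts, with a Wilson upper limit of 0.834%, and a floor of 3 counts would be 0.656%. No interval of an astrocyte EV library reached one of an NSC EV library, and astrocyte EV replicate 3 stood above the other 2. At the lowest astrocyte EV percentage, 25.0, 20.3 and 9.58 passenger counts would have stood in NSC EV replicates 1, 2 and 3, where 2, 1 and 0 were found. Pooled over libraries, the passenger was 2.97% of 19491 counts in astrocyte EVs and 0.115% of 2616 counts in NSC EVs. Wilson intervals cover counting error only.

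**Figure D3:**
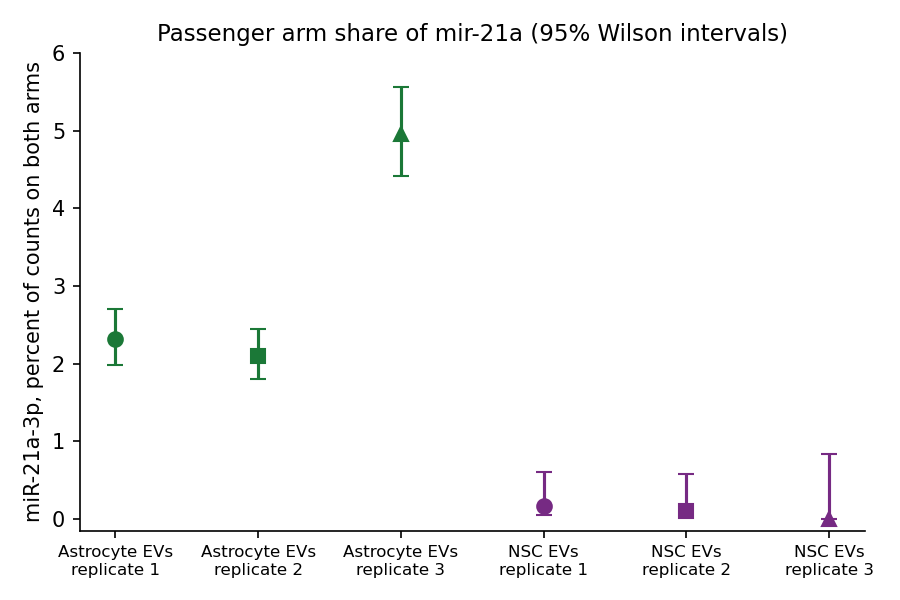
miR-21a-3p as a percentage of the counts on both arms of mir-21a in each library, with 95% Wilson intervals for counting error. The astrocyte EV libraries stand at 2.32%, 2.10% and 4.96%, and the NSC EV libraries at 0.168%, 0.103% and 0.

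Expressed as guide per passenger, there were 42.2, 46.7 and 19.2 counts of miR-21a-5p for each count of miR-21a-3p in the astrocyte EV libraries. There were 595 and 966 in NSC EV replicates 1 and 2, and none can be given for replicate 3. On the log2 scale, with 0.5 added to each arm, the ratios were 5.39, 5.54 and 4.26 against 8.90, 9.33 and 9.84, and the groups did not overlap. The difference in means was -4.29 (exact two-sided permutation p = 0.1, the smallest possible, and 0.1 after Benjamini-Hochberg adjustment over 4 such tests on miR-21a). In an edgeR quasi-likelihood model of arm by group, in which each library serves as its own control, the log2 5p/3p ratio was lower in astrocyte EVs by -4.69 (SE 1.44, adjusted p = 0.0218 over 110 hairpins). A hairpin entered with at least 10 counts on each arm, summed over the 6 libraries. On the 3p arm mir-21a met this only through astrocyte EVs, with 579 counts there and 3 in NSC EVs. The model called 9.09% of the 110 hairpins, 4.55% with a lower 5p/3p ratio in astrocyte EVs, mir-21a among them. The groups did not overlap for 36.4%, with astrocyte EVs below for 20%. The call rests on few passenger counts. It was lost without astrocyte EV replicate 1 (adjusted p = 0.0550) and without NSC EV replicate 1, 2 or 3 (adjusted p = 0.0815, 0.186 and 0.154), and also when every hairpin with at least 1 count on each arm was tested (0.0514).

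A larger part of the rarer arm in astrocyte EVs, as for mir-21a, was not general among hairpins. The model compared 5p with 3p, and 5p was the commoner arm for 62 of the 110. Of the others called lower with mir-21a, mir-17 also had a larger rarer arm in astrocyte EVs (23.0% against 3.25%). The rarer arm was 5p and smaller there for mir-140 (1.18% against 21.5%), mir-370 (1.15% against 23.7%) and mir-676 (0 against 5.38%). Among hairpins called with a higher 5p/3p ratio, mir-320 (1.68% against 0.0528%) and mir-409 (2.63% against 0) also had a larger rarer arm in astrocyte EVs. For mir-3068 (0 against 85.6%), mir-486a (0.0568% against 4.24%) and mir-376b (5.88% against 54.5%) it was smaller there. The median difference in log2 5p/3p over the 110 hairpins was -0.06, and 9 had a more negative difference than mir-21a, whichever arm was commoner. The rarer arm made up a median of 5.88% of both arms in astrocyte EVs and 9.42% in NSC EVs over 107 hairpins, and its percentage was higher in astrocyte EVs for 50 of them. By mean log2 5p/3p over the 6 libraries, mir-21a had the 10th highest ratio of the 110 hairpins. The hairpins next to it moved as follows: mir-93 by -1.10 (adjusted p = 0.708) and mir-9 by 1.76 (adjusted p = 0.438) above it, and mir-34c by -2.61 (adjusted p = 0.346) and mir-449a by -2.82 (adjusted p = 0.307) below it, none of which passed in the same edgeR model.

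**Figure D4:**
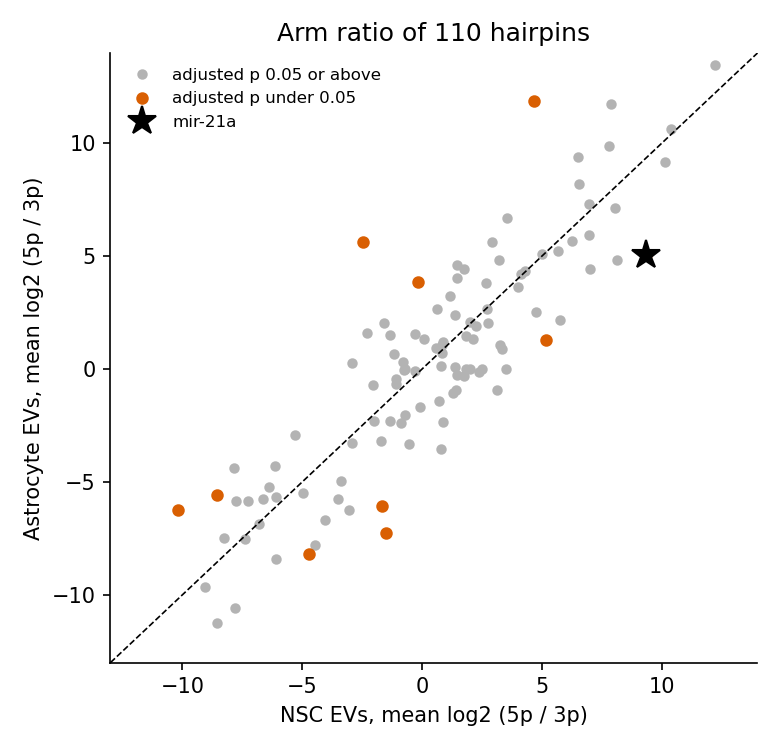
Mean log2 ratio of 5p to 3p counts (0.5 added to each) in NSC EVs and astrocyte EVs for 110 hairpins, with those under an adjusted p of 0.05 in orange, mir-21a as a star and a dashed line of equal ratios. mir-21a stands at 9.35 in NSC EVs and 5.06 in astrocyte EVs, below the line.

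The mesenchymal miRNAs fell from 91133 and 97249 CPM in astrocyte EV replicates 1 and 2 to 6600 CPM in replicate 3, the library in which miR-21a-5p was also lowest at 16287 CPM. miR-21a-3p stood at 850 CPM in that library, against 727 and 786 CPM in the others. Red blood cell miRNAs ran the other way, and were highest in replicate 3. The 4 microglia and white blood cell miRNAs summed to 162 to 705 CPM in astrocyte EVs and 70.4 to 144 CPM in NSC EVs, and did not move one way. miR-142a-5p was higher in astrocyte EVs, with 28, 139 and 73 counts against 7, 13 and 6 (log2 fold change 3.15, adjusted p = 0.0145 in edgeR), and miR-150-5p was lower, with 0 counts in all 3 astrocyte EV libraries against 14, 19 and 13 (adjusted p = 0.00666). The defining miR-142a-3p had 6, 0 and 14 counts and miR-223-3p 0, 1 and 5 counts in the astrocyte EV libraries, with 0 of both in all NSC EV libraries. Other lists were higher in NSC EVs, where miR-21a was low: the 3 neuronal miRNAs summed to 138 to 348 CPM in astrocyte EVs and 9765 to 17738 CPM in NSC EVs, with 3 of 3 called lower in astrocyte EVs. The 2 endothelial miRNAs summed to 69.2 to 191 CPM against 934 to 1730 CPM, both called lower. The 3 muscle miRNAs summed to 170 to 413 CPM against 189 to 229 CPM, with miR-206-3p higher in astrocyte EVs by 5.49 on the log2 scale (adjusted p = 0.00376). The part of any of these lists in the miR-21a results was not tested. With the 4 mesenchymal miRNAs left out of the table the log2 fold change was 2.83 for miR-21a-5p (adjusted p = 0.00222) and 7.33 for miR-21a-3p in edgeR. The liver and serum miRNA miR-122-5p stood at 1620, 5870 and 3119 CPM in astrocyte EVs and at 1793 to 2067 CPM in NSC EVs, and the groups overlapped. Without the 4 listed red blood cell miRNAs the log2 fold change was 2.91 for miR-21a-5p (adjusted p = 0.00292) and 7.37 for miR-21a-3p in edgeR. Leaving rows out changes the scaling and the set of tested rows, but takes away no miR-21a counts. It therefore cannot show how much miR-21a came from these cells. The rows of miR-199b-3p and miR-486b-5p, with counts equal or close to those of miR-199a-3p and miR-486a-5p, stayed in.

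The miRNAs whose level followed each arm most closely over the 6 libraries were found by Pearson's r of log2 CPM, as a description over points that share a split into 2 groups. For miR-21a-5p they were miR-100-5p (r = 0.991), miR-155-5p (r = 0.987), miR-1943-5p (r = 0.985), miR-34c-5p (r = 0.985) and miR-23b-3p (r = 0.981). For miR-21a-3p they were miR-451a (r = 0.991), miR-125a-3p (r = 0.990), miR-22-3p (r = 0.985), miR-146b-5p (r = 0.985) and miR-144-3p (r = 0.982). The lists had no name in common, and miR-451a and miR-144-3p are among the red blood cell markers. Each arm was only the 15th or 19th closest to the other (r = 0.964).

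miR-21 is often studied with other miRNAs of inflammatory signaling. Of 7 such miRNAs beside miR-21a-5p, 6 were tested, and 2 were higher and 1 lower in astrocyte EVs, where 22.3% and 25.8% of all 256 were. Their median log2 fold change was 0.74 against -0.06 over all 256. Of these, miR-146b-5p, a brake on Toll-like receptor signaling, was higher by 3.77 (SE 0.39, adjusted p = 8.95e-04), and miR-155-5p, which is induced in activated myeloid cells, by 2.93 (SE 0.57, adjusted p = 0.00617). miR-125b-5p was lower by -1.74 (adjusted p = 0.0280). All these are log2 fold changes from the edgeR fit of mature rows.

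The table also held fragments counted on RefSeq gene rows. The row of the host gene Vmp1 spans the whole gene (chr11:86583865-86683822) and overlaps the hairpin. Its counts may include intron fragments as well as mRNA. This row held 6912, 7830 and 7474 counts in astrocyte EVs and 1940, 1363 and 799 in NSC EVs. The mir-21a hairpin row amounted to 95.3%, 94.8% and 72.7% of the Vmp1 counts in the astrocyte EV libraries and to 61.4%, 70.9% and 57.2% in the NSC EV libraries. As deposited, the Vmp1 row was higher in astrocyte EVs by 2.29 on the log2 scale (SE 0.52, adjusted p = 0.0346 in edgeR's quasi-likelihood test over all non-hairpin rows). This call was lost without astrocyte EV replicate 1 or 2 (adjusted p = 0.102 and 0.107) and without NSC EV replicate 2 or 3 (0.0702 and 0.105).

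With the hairpin counts subtracted, 322, 409 and 2040 counts were left on Vmp1 in astrocyte EVs and 748, 396 and 342 in NSC EVs. Scaled to CPM of all non-hairpin counts these were 3.76, 5.68 and 18.3 against 15.7, 8.96 and 6.76, so the groups overlapped. The log2 fold change fell to 0.17 (SE 0.44, adjusted p = 0.838 in edgeR), so no difference in the rest of the Vmp1 row was detected.

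**Figure D5:**
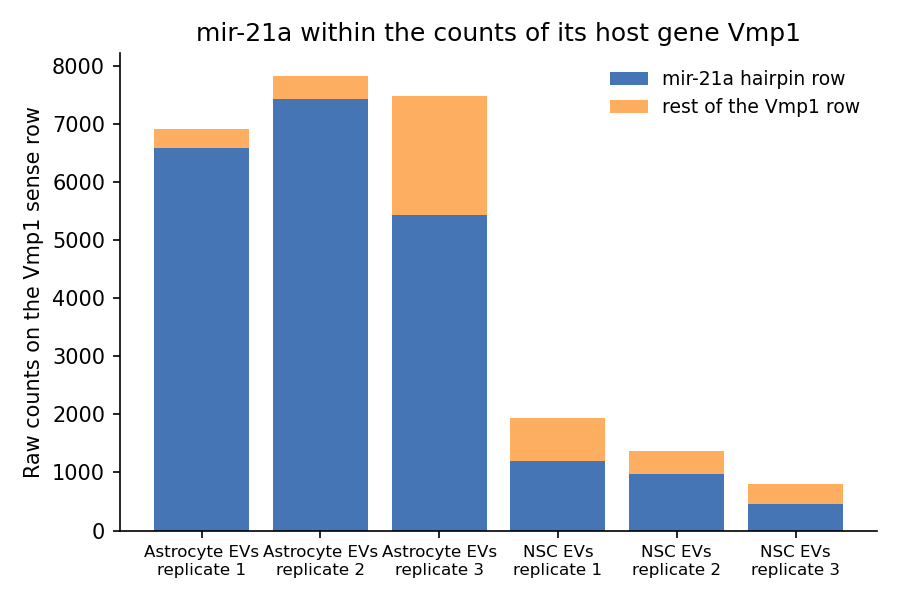
Raw counts on the sense row of Vmp1 in each library, split into the count of the mir-21a hairpin row (blue) and the remainder (orange). The hairpin makes up 95.3% of the first astrocyte EV bar and 57.2% of the last NSC EV bar, and the largest remainder is 2040 counts in astrocyte EV replicate 3.

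Fragments on RefSeq gene rows were read from lists of reported miR-21 targets, of transcription factors linked to its promoter, and of miRNA maturation machinery. In the same edgeR fit 9.41% of 17739 RefSeq rows passed, 6.02% as higher and 3.39% as lower in astrocyte EVs, with a median log2 fold change of 0.03. Of 14 reported miR-21 targets, 1 was lower and none higher, with a median of 0.02, and 2 were higher and 2 lower at an unadjusted p under 0.05. The target that passed was Reck, with 2.01, 2.83 and 2.40 CPM of TMM-scaled non-hairpin counts in astrocyte EVs and 6.22, 7.21 and 6.81 in NSC EVs. Every astrocyte EV library lay below every NSC EV library, and Reck differed by -1.48 on the log2 scale (SE 0.30, adjusted p = 0.0250). No listed row was called lower without TMM scaling or without astrocyte EV replicate 1, astrocyte EV replicate 2 or NSC EV replicate 3, so the Reck call was lost there. Pdcd4 stood at 0.86 (SE 0.32, adjusted p = 0.117). These are fragments in EVs and not mRNA levels in the cells.

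Of 7 transcription factors linked to the miR-21 promoter, Fos, a subunit of AP-1, was higher and none lower. In the same edgeR fit 3 were higher and 1 lower at an unadjusted p under 0.05. The list's median log2 fold change was 0.77, but Nfkb1 (-1.02, adjusted p = 0.0982) and Stat3 (-1.61, adjusted p = 0.239) were negative. Stat3 had 906 counts in NSC EV replicate 2, against 89 and 104 in NSC EV replicates 1 and 3. Fos stood at 6.65, 4.60 and 2.81 CPM on that scale in astrocyte EVs and at 0.333, 0.254 and 0.344 in NSC EVs, with no overlap, and the log2 difference came to 3.91 (SE 0.44, adjusted p = 0.0126). The Fos call was lost without astrocyte EV replicate 1 or 2 (adjusted p = 0.0541 and 0.0625) or NSC EV replicate 3 (0.0525). None of 9 maturation genes passed in edgeR, with a median of 0.07 and 2 higher at an unadjusted p under 0.05. The largest value among them was 1.70 for Drosha, the nuclease that cuts the hairpin out (adjusted p = 0.0701).

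Sites for the guide seed were looked for as a description of the target list. The letters ATAAGCT, the reverse complement of bases 2 to 8 of miR-21a-5p, were searched on the sense strand of the longest 3′ UTR of each gene in GENCODE vM21. They stood in 10 of the 14 targets and in 7.18% of 21020 genes, while the median 3′ UTR was 961 bases long over all genes and 1850 bases among the targets. Reported targets may have been picked through such sites, so the higher share among them is no independent support. Pdcd4 is shown as a target known in many tissues and Reck as the target that was lower here, with the site in capitals. The stretches lie at chr19:53929421-53929449 in Pdcd4 and chr4:43944396-43944424 in Reck, both on the plus strand of GRCm38.
Pdcd4 site: tgggtgttctgATAAGCTactttctaagt
Reck site: tacagtttgaaATAAGCTattaatgtaat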

How the data were processed

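EV RNA was extracted with Trizol and exosome columns and sequenced as small RNA libraries; the methods name an Illumina kit and the series record a CleanTag kit. The authors deposited raw read counts for 61949 rows (902 mature miRNAs, 788 hairpins, and other RNA), made with cutadapt, Bowtie, SAMtools and bedtools on mm10 per the labels; the strand setting and the handling of reads that fit several rows were not given in the sources used here. Hairpin rows repeat mature reads and were fitted apart.

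Counts were tested with edgeR 4.0.16 in R 4.3.3 (quasi-likelihood, TMM, filterByExpr, group as the only term, Benjamini-Hochberg, threshold 0.05), with the sum of mature rows as library size for miRNAs and of non-hairpin rows for genes. SE was the log2 fold change divided by the root of F. Arm ratios were tested as arm by group with library as block. Limma 3.58.1 and DESeq2 1.42.0 served as alternatives, and the code was tested on simulated data. Between replicates of a group, counts differed beyond sampling noise (chi-square per degree of freedom at least 20.7). It was 20.7 between astrocyte EV replicates 1 and 2, and 330 and 295 between each of these and replicate 3. Among NSC EV replicates it was 55.7 to 97.4. On the TMM-scaled totals 3 counts are 9.44 to 18.6 CPM. The authors' own comparisons were not used. Genes were named by a rule: both arms and the hairpin, mature rows sharing a seed, the 5 miRNAs closest by r to each arm, the 2 neighbors on either side in share and arm ratio, and members of the lists. The members and lists were chosen with earlier results of these data known. Python 3.11.15 was used for shares, intervals and sequences.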

Additional observations from a re-analysis of the deposited data

Results flagged for a closer look

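The antisense row of Vmp1, which no comparison used, held counts in all 6 libraries and up to 1488 counts in astrocyte EV replicate 3. It held 246 and 386 counts in astrocyte EV replicates 1 and 2 and 371, 817 and 681 in NSC EV replicates 1, 2 and 3.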

How the results depend on the processing

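miR-21a-5p, miR-21a-3p and the hairpin kept their direction and their call in all 15, 15 and 7 alternatives run for them. For both arms these were DESeq2, other scaling, filters, library sizes and row sets, each library left out and a replicate block; for the hairpin, each library left out and the block. miR-21a-5p ranged from 2.59 to 3.13, with the highest adjusted p, 0.0286, without NSC EV replicate 2, and miR-21a-3p from 6.96 to 8.19. Mature miRNAs called higher ranged from 34 to 69 with a library left out. The arm ratio difference ranged from -5.30 to -4.20 with a library left out, and the hairpins called from 0 to 21, where 16 of 96 passed an unadjusted p of 0.05 at the lowest count, without NSC EV replicate 2. With at least 1 count on each arm the difference was -4.69 (adjusted p = 0.0514), and 4 hairpins were called. A pseudocount of 5 moved the mean log2 ratio difference from -4.29 to -2.06, and a pseudocount of 0 was not run because of the 0 count. Of the gene list rows, 2 were called higher and 1 lower, and these counts ranged from 0 to 3 and from 0 to 1 with a library left out, and were 1 and 0 without TMM. The Vmp1 row without TMM stood at 1.56 (adjusted p = 0.0887). Leaving out mesenchymal miRNAs, subtracting the hairpin from Vmp1 and the block for gene rows were added after seeing the data.

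The replicate numbers were not treated as pairing the samples, because same-numbered libraries correlated at only 0.062, 0.135 and 0.075 in their deviations from the group means, each best with its own number. With a replicate block miR-21a-5p stood at 2.85, miR-21a-3p at 7.40 and the hairpin at 3.01, all still called. The arm ratio difference was -4.62 (adjusted p = 0.274), with 0 hairpins called by edgeR and 16 of 110 at an unadjusted p under 0.05, and the listed rows called lower went to 0.

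Few counts limited the estimate of miR-21a-3p in NSC EVs, where 3 counts in all were found. Mature miRNA counts were 259560, 203506 and 177093 in NSC EV replicates 1, 2 and 3, and 182075, 209445 and 399211 in the astrocyte EV replicates.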
